A study of Mus musculus with 12 samples.

Results

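The genes described here encode 10 transcription factors, 8 of the AP-1 group and 2 of the EGR group, and were read in mouse peritoneal macrophages (PMφs). They were listed by name and family, and all 10 were among the 43278 symbols of the table. They are Fos, Fosb and Fosl2 of the Fos family, Jun, Junb and Jund of the Jun family, their dimer partners Atf3 and Batf, and the zinc finger genes Egr1 and Egr2. Poly(A) RNA was sequenced from 12 cultures of PMφs from wild-type C57BL/6J mice of 8 to 12 wk, 3 cultures in each of 4 groups. Control PMφs received neither agent, oxLDL PMφs were cultured with 100 µg/ml human medium-oxidized LDL for 24 h, a modified lipoprotein that macrophages take up to become foam cells, LPS PMφs received 10 ng/ml ultrapure LPS, the bacterial ligand of Toll-like receptor 4, and oxLDL+LPS PMφs received both. How long LPS was left on these cultures is not stated, and the methods give up to 6 h for LPS on PMφs. All cells were elicited with 4% thioglycolate, collected from the peritoneal cavity on day 4 and left to adhere for 18 h. According to the methods, cells of up to 10 male and female littermates were pooled and divided among the groups, so a culture stands for a pool of mice and not for 1 animal.

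AP-1 is a dimer of basic leucine zipper proteins. Jun proteins can pair with each other or with Fos proteins, Fos proteins need a Jun partner, and ATF and BATF proteins join the same network, so the make-up of the dimer depends on which genes a cell transcribes. Many of these genes, with EGR1 and EGR2, are immediate early genes that growth factors, stress and Toll-like receptor ligands such as LPS switch on briefly through MAP kinases, and in macrophages AP-1 acts with NF-κB at cytokine genes.

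The promoters show how differently the members are built just before their transcription start. Of the 10 genes, 9 matched a RefSeq promoter on GRCm38.p6, which spans 250 bases before the start and 50 after it, and Egr1 is named only. The 150 bases before the start are given for Fos, Jun and Egr2, whose levels were lower with LPS in the tests below, and for Junb, which was higher. Capitals mark the letters found by the search described after them.

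Fos, chr12:85473740-85473889, plus strand: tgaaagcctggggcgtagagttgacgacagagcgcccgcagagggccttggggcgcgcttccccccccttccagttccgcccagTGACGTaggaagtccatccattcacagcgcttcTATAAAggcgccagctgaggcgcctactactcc

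Jun, chr4:95052223-95052372, minus strand: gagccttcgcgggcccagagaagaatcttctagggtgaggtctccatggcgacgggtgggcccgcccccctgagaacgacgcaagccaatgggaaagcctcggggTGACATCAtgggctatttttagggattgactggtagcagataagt

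Junb, chr8:84978749-84978898, minus strand: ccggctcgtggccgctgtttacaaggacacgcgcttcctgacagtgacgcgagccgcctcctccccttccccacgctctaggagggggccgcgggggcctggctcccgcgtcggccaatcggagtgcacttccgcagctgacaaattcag

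Egr2, chr10:67537719-67537868, plus strand, 1 of its 5 RefSeq promoters: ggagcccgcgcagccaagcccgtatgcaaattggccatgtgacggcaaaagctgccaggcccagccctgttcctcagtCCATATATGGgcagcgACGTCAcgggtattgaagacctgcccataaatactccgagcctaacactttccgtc

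Both strands of the 300-base promoters were searched, with positions counted from the first transcribed base as 0. The window of Jund, chr8:70697489-70697788, ends before the Jund gene placed below, which starts at 70698949. For Jund the search therefore does not cover the bases just before that start. The windows of Atf3 (chr1:191183284-191183583) and Fosl2 (chr5:32136222-32136521) and the Egr2 promoter shown lie inside the genes as placed below. Their positions are counted from the RefSeq start and not from the outermost start of the gene. The consensus AP-1 element TGACTCA, which stands in 5.2% of 32851 RefSeq promoters, was in none of the 9 members' promoters, and neither was the full cAMP response element TGACGTCA (1.79% of all promoters) or the EGR element GCGTGGGCG (0.61%). Allowing any base at position 5 of the cAMP response element (TGACNTCA, 8.83% of all promoters) gave 1 member, Jun, with a match at -45 to -38. The shorter TGACGT, which is part of the cAMP response element, stood in 7.51% of all promoters and in those of 4 members, which are Fos (-66 to -61), Egr2 (-56 to -51 on the other strand of the promoter shown), Atf3 (-8 to -3 on the other strand) and Batf (-98 to -93). Egr2 was also the only one of the 9 searched members with a CArG box, the site of serum response factor, at -72 to -63, against 1.63% of all promoters. A TATAAA box, found in 13.62% of all promoters, stood at -33 to -28 in Fos and at 0 to 5 in Junb. The percentages are shares of single promoters, whereas a member was counted if any of its promoters matched, and Egr2 has 5. These matches describe letters in the window and are not measured binding sites.

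On GRCm38 (GENCODE M21) Fos lies at chr12:85473890-85477273 and Batf at chr12:85686669-85709087, both on the plus strand of 1 chromosome, whereas Junb (chr8:84974484-84978718, minus) and Jund (chr8:70698949-70700616, plus) share another. Fosb is at chr7:19302696-19310051 (minus), Fosl2 at chr5:32135801-32157842 (plus), Jun at chr4:95049034-95052222 (minus), Egr2 at chr10:67535475-67542188 (plus) and Atf3 at chr1:191170296-191218039 (minus). The Prdx2 gene overlaps exons of Junb on the other strand, and whether the counting used strand is not stated, so reads of the overlap cannot be assigned with certainty. Prdx2 had a normalized count of 1577 to 1942 in Control and 1948 to 2568 in LPS libraries. Junos overlaps Jun with 8 to 66 over the 12 libraries.

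Values are the deposited normalized counts, which are gene counts multiplied by 1 factor per library and rounded. They summed to 17152972 to 17709731 per library without LPS and to 22071853 to 26384551 with LPS, and the factors imply 16.7 M to 26.2 M reads per library. Macrophage markers were abundant, with a summed normalized count of 226714 to 318793 per library over 7 genes, and 6 LPS response genes, Tnf and Il1b among them, summed to 118 to 167 without LPS and to 34797 to 350568 with it. T cell markers summed to 0 to 4. Neutrophil markers summed to 31 to 49 without LPS and 74 to 248 with it, nearly all of it from S100a8. Ly6g was at 0 throughout and S100a9 at 0 or 1. Summed B cell markers ran from 38 to 83, mast cell markers from 25 to 73, dendritic cell markers from 22 to 128 and large peritoneal macrophage markers from 274 to 739. Of the 3 eosinophil markers Prg2 was at 0 throughout and Epx at 0 or 1, so their sum was nearly all Siglecf. It was 315 to 383 in Control, 180 to 303 in oxLDL, 99 to 124 in LPS and 55 to 104 in oxLDL+LPS libraries. Mesothelial and fibroblast markers summed to 4682 to 21824 in Control, 4896 to 17539 in oxLDL, 4605 to 25579 in LPS and 4025 to 14323 in oxLDL+LPS libraries. Their part in the results was not tested.

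Replicate numbers 2 and 3 of the labels mark a similar sex make-up in all 4 groups, whereas number 1 differs between the LPS states. The female transcript Xist was at 1 and 2 in the Control and oxLDL libraries of number 1, whose 4 Y-linked genes summed to 3138 and 3009. In the LPS and oxLDL+LPS libraries of number 1 Xist was at 6331 and 3812 and the Y-linked sum at 1023 and 1004. The Y-linked sums of this pair were close but Xist was not, so whether its make-up is the same is not settled. Number 2 had a Y-linked sum of 0 to 2 and number 3 of 1620 to 1783 in all groups. None of the 10 genes lies on a sex chromosome, but pairs across LPS in number 1 compare pools of different sex make-up, so the counts and log2 fold changes of the members with LPS are also given without number 1. The gene lists and family shares were not recomputed without it.

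In Control PMφs the 10 genes spanned a wide range. Per kb of exon, the scale on which genes can be compared, Atf3 had 4665 ± 466 normalized counts (SD, n = 3), Jun 1513 ± 118, Jund 1410 ± 245 and Junb 803 ± 42.5. Egr2 followed with 418 ± 23.0, Fos with 164 ± 34.2, Fosl2 with 114 ± 16.3, Batf with 66.6 ± 2.29 and Egr1 with 27.2 ± 5.35. The libraries of Jun and Jund overlapped, as did those of Fos and Fosl2, and the other neighbours in this order did not. With LPS the order per kb became Atf3 (5968 ± 694), Junb (4501 ± 417), Jund (2965 ± 342), Batf (752 ± 164), Jun (559 ± 138), Fosl2 (300 ± 58.5), Egr2 (300 ± 102), Fos (62.9 ± 35.8) and Egr1 (27.1 ± 9.96). Batf and Jun overlapped there, as did Fosl2 and Egr2.

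Fosb, a Fos protein that serum induces in many cells, was barely detected. Its normalized counts were 2, 3 and 1 in Control, 3, 4 and 0 in oxLDL, 11, 5 and 0 in LPS and 3, 3 and 0 in oxLDL+LPS libraries. A count of 0 allows a level of up to 2.29, 4.24 and 3.38 in the 3 libraries concerned (3 reads, counting error only). Fosb did not pass the filter and was not tested, so the tests below cover 9 of the 10 genes.

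**Figure D1:**
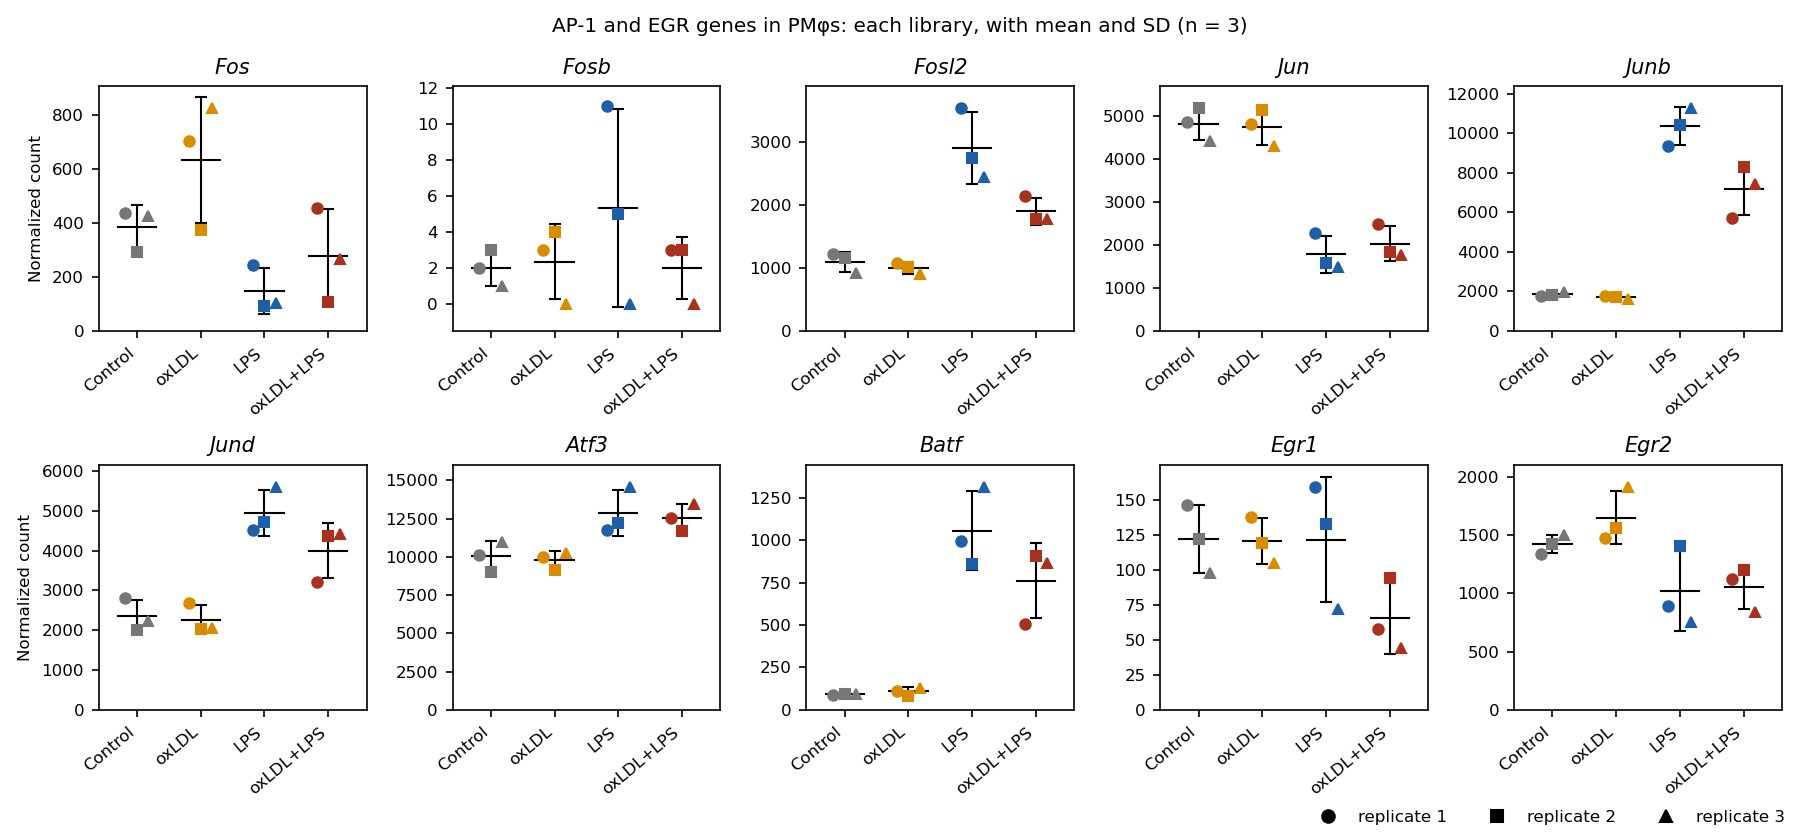
Normalized count (linear axis from 0, except Fosb) of each of the 10 genes in the 4 groups, with a symbol per library and the mean and SD (n = 3) in black. Junb and Batf stand far higher in both LPS groups than in the groups without LPS, Jun stands lower, and Fosb stays between 0 and 11.

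LPS moved members of the same family in opposite directions. The tests were limma fits to log2(normalized count + 1), limited to genes whose value reached 10 in 3 or more of the libraries involved, and a gene counted as called when its Benjamini-Hochberg adjusted p was under 0.1. In the comparison of LPS with Control PMφs, 5 of the 9 tested genes were higher (Fosl2, Junb, Jund, Atf3 and Batf) and 3 were lower (Fos, Jun and Egr2), and Egr1 did not pass. Of all 13006 genes tested, 61.7% passed, 31.4% higher and 30.3% lower, against 5 higher and 3 lower of the 9 members. The groups did not overlap for 5 members that were higher and 2 that were lower, against 63.2% of all genes (32.1% higher and 31.1% lower). With the replicate number as a block 5 members were again higher and 3 lower, against 68.7% of all genes (34.6% and 34.1%). Without number 1 the block also gave 5 and 3, against 66.9% (34.2% and 32.6%). Without number 3 it gave 4 and 2, since Egr2 (limma adjusted p = 0.177) and Atf3 (0.109) were no longer called. Over all genes that fit called 6566 of 12297, with 3300 higher and 3266 lower. In bulk cultures a change in the level per cell and a change in which cells are present cannot be told apart, and the p-values measure the spread between these cultures.

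The Fos family moved in opposite directions. Fos, the classic serum-induced partner of Jun, had normalized counts of 437, 292 and 425 in Control and 245, 94 and 105 in LPS PMφs. All 3 LPS libraries were below all 3 Control libraries, with number 1 the highest in LPS. Fos fell by 1.49 on the log2 scale (SE 0.36, limma adjusted p = 0.00927), a level 2.8-fold lower. Fosl2, which encodes FRA-2, had normalized counts of 1219, 1164 and 922 in Control and 3537, 2744 and 2440 in LPS. Every LPS library exceeded every Control library, and the log2 fold change was 1.39 (SE 0.16, limma adjusted p = 0.000247, 2.62-fold).

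The Jun family split in the same way. Jun, which can form AP-1 with itself or with Fos proteins, had normalized counts of 4855, 5185 and 4433 in Control and 2288, 1572 and 1489 in LPS PMφs. The groups lay far apart, and Jun was 2.75-fold lower, with a log2 fold change of -1.46 (SE 0.17, limma adjusted p = 0.00021). Junb, a Jun protein that can oppose Jun at some promoters, had 1775, 1807 and 1958 in Control and 9361, 10434 and 11275 in LPS. Again the groups did not overlap, and Junb was 5.59-fold higher with a log2 fold change of 2.48 (SE 0.10, limma adjusted p = 9.68e-07). Jund, which most resting cells transcribe, had 2808, 2017 and 2232 in Control and 4523, 4719 and 5593 in LPS. It was 2.11-fold higher (log2 fold change 1.08, SE 0.14, limma adjusted p = 0.000478), with no overlap between the groups.

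Because shares within a family do not depend on the scaling between libraries, they show the change in make-up directly. Of the summed Jun family per kb, Jun held 38.3%, 44.9% and 38.8% in Control and 9.57%, 6.27% and 5.35% in LPS libraries. The share of Junb went from 21.6% ± 2.19 to 56.1% ± 1.73 (SD, n = 3), while Jund held 37.7% ± 4.47 and 36.9% ± 1.37. The ratio of Junb to Jun per kb was 0.507, 0.483 and 0.612 in Control and 5.67, 9.2 and 10.5 in LPS, so the more abundant of the pair was Jun in every Control library and Junb in every LPS library. The family sum per kb was 3726 ± 219 in Control and 8025 ± 628 in LPS. In the Fos family, counted with Fosl1, Fos went from 56.0% ± 7.58 to 14.7% ± 4.27 and Fosl2 from 39.5% ± 6.78 to 74.6% ± 6.29. The ratio of Fosl2 to Fos was below 1 in every Control library (0.678, 0.969 and 0.527) and above 1 in every LPS library (3.51, 7.09 and 5.65). With 3 against 3 libraries an exact two-sided permutation test cannot go below p = 0.1, the value for any share or gene whose groups do not overlap.

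**Figure D2:**
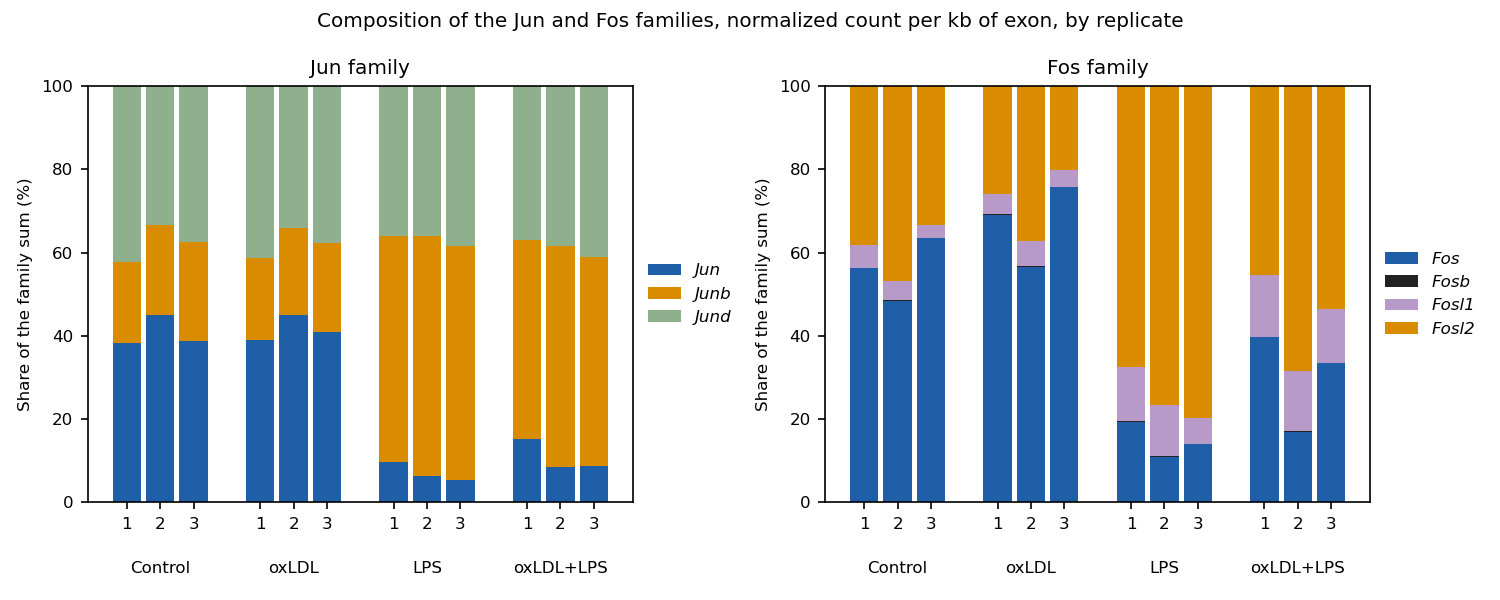
Stacked bars give the share (%) of each gene in the summed normalized count per kb of exon of the Jun family (left) and the Fos family with Fosl1 (right), 1 bar per library with its replicate number. Jun gives way to Junb in all LPS libraries, and Fos gives way to Fosl2, with Fos holding more of the family in oxLDL+LPS (17.0% to 39.7%) than in LPS libraries (10.8% to 19.3%), where the ranges meet.

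Both dimer partners had higher values on the deposited scale. Batf, which lacks a transactivation domain and binds DNA with Jun proteins and interferon regulatory factors, had normalized counts of 90, 95 and 96 in Control and 996, 862 and 1312 in LPS PMφs. This was the largest difference among the members in this comparison, 11.0-fold, with a log2 fold change of 3.46 (SE 0.16, limma adjusted p = 2.16e-06). Atf3, a stress-induced repressor of Toll-like receptor target genes, was already the most abundant member in Control. It had 10143, 8999 and 11001 in Control and 11770, 12235 and 14559 in LPS, so all LPS libraries were above the Control libraries by a modest margin. Its log2 fold change was 0.35 (SE 0.13, limma adjusted p = 0.0461), and this direction depends on the scaling. With values divided by library totals it was -0.13, and with quantile normalization it was -0.49 and passed the test as lower (limma adjusted p = 0.00321). Leaving out Control 1, Control 2 or LPS 3 also ended the call for Atf3, with an adjusted p of 0.106, 0.161 and 0.131.

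Neither EGR gene was called higher. Egr1, an immediate early zinc finger factor, had normalized counts of 146, 122 and 98 in Control and 159, 133 and 72 in LPS PMφs. The groups overlapped fully, and the log2 fold change was -0.06 (SE 0.31, limma adjusted p = 0.877). Egr2, which takes part in myeloid differentiation, had 1341, 1427 and 1497 in Control and 894, 1410 and 754 in LPS. LPS 2 lay within the Control range and the other LPS libraries lay below it. Egr2 fell by 0.53 on the log2 scale (SE 0.21, limma adjusted p = 0.0674). The call ended without any 1 of Control 1, Control 2, Control 3, LPS 1 or LPS 3, with adjusted p of 0.110 to 0.192.

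Dividing by library totals in place of the authors' factors moved the median log2 fold change of all genes from -7e-04 to -0.478 in this comparison and the split of calls from 4087 higher and 3938 lower to 2207 and 7189. Under it 4 members were higher and 3 lower. Under quantile normalization 4 were higher and 4 lower, where 3239 of all 13006 genes were higher and 4809 lower. With the block as well as library totals Egr1 was also called lower, with -0.54 (limma adjusted p = 0.039). Apart from Atf3 and the uncalled Egr1, no member changed direction under either scaling. The log2 fold changes then were 0.91 and 1.01 for Fosl2, 2.00 and 1.89 for Junb, 0.60 and 0.55 for Jund and 2.98 and 3.44 for Batf. With the block and without number 1, on the deposited scale, they were -1.82 for Fos, 1.32 for Fosl2, -1.65 for Jun, 2.53 for Junb, 1.28 for Jund, 0.42 for Atf3, 3.46 for Batf, -0.16 for Egr1 and -0.50 for Egr2.

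After oxLDL loading the response to LPS kept these directions. In oxLDL+LPS against oxLDL PMφs 5 members were higher (Fosl2, Junb, Jund, Atf3 and Batf) and 4 lower (Fos, Jun, Egr1 and Egr2), where 54.5% of 12883 genes passed, 28.1% higher and 26.3% lower. Groups did not overlap for 5 higher and 3 lower members, against 57.6% of all genes (29.6% higher and 28.0% lower), and the overlapping member was Fos. With the block the counts were again 5 and 4, against 63.4% of all genes (32.0% and 31.4%). Without number 1 they were also 5 and 4, against 62.3% (31.8% and 30.5%). Junb had 1763, 1739 and 1625 in oxLDL and 5728, 8315 and 7453 in oxLDL+LPS PMφs. It was 4.14-fold higher (log2 fold change 2.05, SE 0.14, limma adjusted p = 2.72e-05). Batf had 111, 84 and 131 against 507, 909 and 868. The groups were far apart and Batf was 6.84-fold higher (log2 fold change 2.77, SE 0.26, limma adjusted p = 0.00014).

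Fosl2 and Jund were also higher in each library with LPS. Fosl2 had 1086, 1008 and 900 in oxLDL and 2147, 1772 and 1775 in oxLDL+LPS PMφs (log2 fold change 0.92, SE 0.11, limma adjusted p = 0.000482). Jund had 2679, 2034 and 2065 against 3210, 4375 and 4411 (log2 fold change 0.82, SE 0.16, limma adjusted p = 0.00489). Atf3 had 10014, 9120 and 10269 against 12520, 11726 and 13474, a log2 fold change of 0.36 (SE 0.10, limma adjusted p = 0.0196). As without oxLDL, that of Atf3 was -0.03 with library totals and -0.37, called lower, with quantile normalization.

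Jun and both EGR genes were lower. Jun had 4820, 5134 and 4309 in oxLDL and 2499, 1833 and 1769 in oxLDL+LPS PMφs, 2.36-fold lower (log2 fold change -1.24, SE 0.15, limma adjusted p = 0.000408). Egr1 had 138, 119 and 105 against 58, 94 and 44. All 3 values with LPS were below all 3 without it, and Egr1 fell by 0.94 on the log2 scale (SE 0.29, limma adjusted p = 0.0319). Without oxLDL 1 the adjusted p for Egr1 was 0.105. Egr2 had 1477, 1564 and 1911 against 1124, 1198 and 844 and fell by 0.65 (SE 0.16, limma adjusted p = 0.012). Fos had 703, 372 and 824 against 454, 107 and 268, where the highest value with LPS exceeded the lowest without it. Fos fell by 1.34 (SE 0.53, limma adjusted p = 0.0724), and the call ended without oxLDL 1, oxLDL 3, oxLDL+LPS 2 or oxLDL+LPS 3, with adjusted p of 0.115 to 0.191. With the block and without number 1, the log2 fold changes of this comparison were -1.70 for Fos, 0.90 for Fosl2, -1.38 for Jun, 2.23 for Junb, 1.1 for Jund, 0.38 for Atf3, 3.07 for Batf, -0.79 for Egr1 and -0.78 for Egr2.

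**Figure D3:**
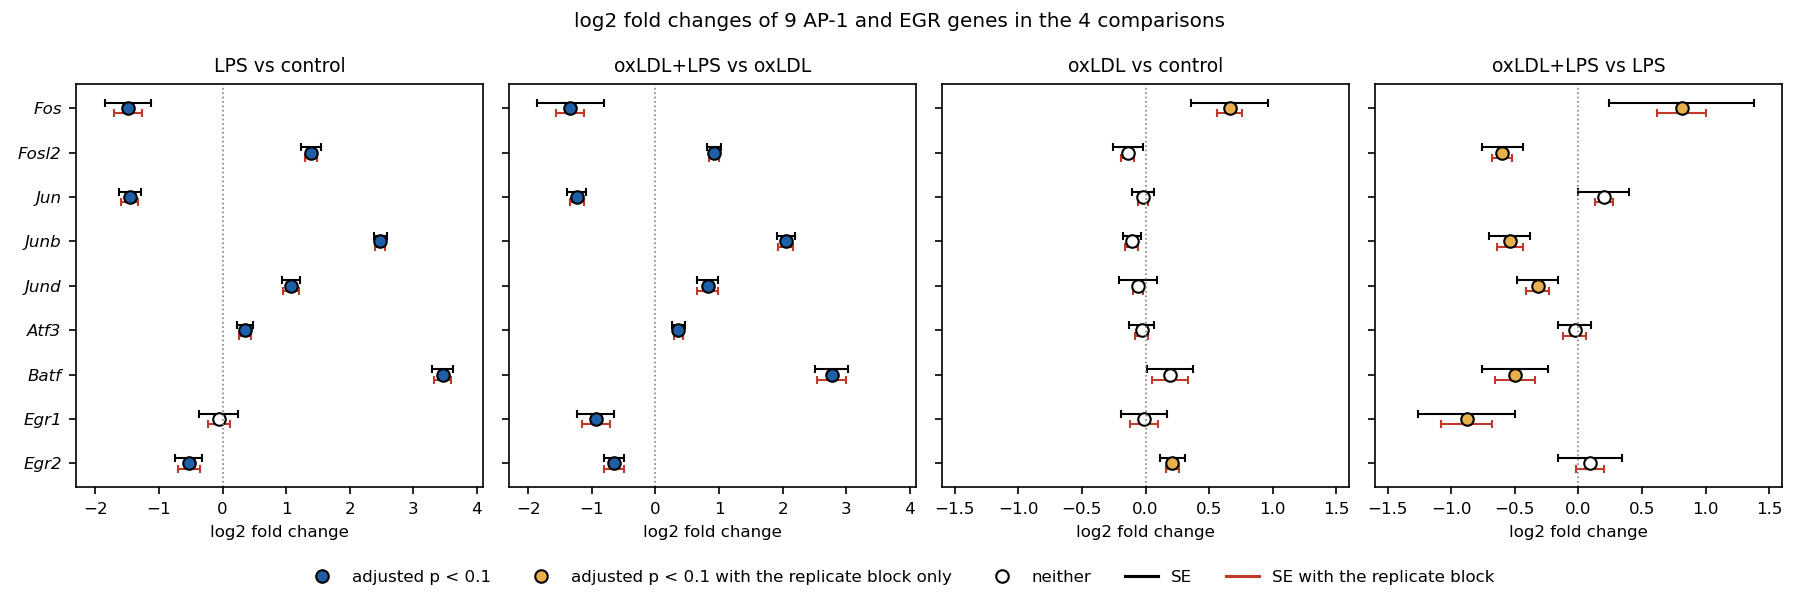
log2 fold change (x axis, on the log2 of normalized count plus 1) of the 9 tested genes in the 4 comparisons, with bars for the SE of the fit without (black) and with (red) the replicate block. Blue points passed an adjusted p of 0.1 without the block, yellow points only with it, and the panels for LPS hold 8 and 9 blue points while those for oxLDL hold none. The x axes of the LPS and oxLDL panels differ.

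The study compared PMφs with and without oxLDL while looking for a source of reactive oxygen species. Here the difference with oxLDL was taken within each LPS state, where libraries of the same number deviated together. Without the block no member was called in oxLDL against Control PMφs, where the share of all 12734 genes called was 0%, and 379 genes but no member had an unadjusted p under 0.05. With the replicate number as a block limma called 2 members higher, Fos and Egr2, against 4.70% of all genes, with 1.79% higher and 2.91% lower. Fos had 437, 292 and 425 in Control and 703, 372 and 824 in oxLDL PMφs. Within each number the oxLDL library was higher, by 0.68, 0.35 and 0.95 on the log2 scale, although oxLDL 2 lay inside the Control range. The mean log2 fold change was 0.66, or 1.58-fold, with an SE of 0.30 without the block (limma adjusted p = 1.0) and 0.10 with it (limma adjusted p = 0.00568). Egr2 was higher by 0.14, 0.13 and 0.35 within the numbers, a mean of 0.21 with a blocked SE of 0.05 and a limma adjusted p of 0.0749 with the block. Without number 1 or number 2 the block called Fos but not Egr2, and without number 3 it called Fos, Egr2 and, as lower, Fosl2. Over all genes it called 235 of 12359 without number 1, 129 of 12351 without number 2 and 1283 of 12434 without number 3.

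The other members differed little between oxLDL and Control PMφs. The log2 fold changes of Fosl2, Jun, Junb, Jund, Egr1 and Atf3 lay between -0.14 and -0.01, and Batf had 0.19 with differences of 0.3, -0.18 and 0.44 within the numbers. Junb was the only member whose groups did not overlap, with every oxLDL library below every Control library, against 7.69% of all genes (3.79% higher and 3.90% lower).

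In PMφs given LPS, most members called with the block were lower with oxLDL. Without the block 0 members passed, with the lowest adjusted p at 0.699, the share of all 12769 genes called was 0%, and 2 members and 890 genes had an unadjusted p under 0.05. With the replicate block limma called Fos higher and Fosl2, Junb, Jund, Egr1 and Batf lower, 6 of the 9, against 13.2% of all genes (4.41% higher and 8.75% lower). Without the block, the groups did not overlap for Fosl2, Junb and Jund, all lower with oxLDL, against 12.6% of all genes (6.18% higher and 6.37% lower). The blocked calls depend on single numbers, since without number 2 the block called 7 members and 2945 genes and without number 1 or 3 it called 0 members, with 70 and 0 genes.

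Among the genes that LPS raised, Fosl2 had 3537, 2744 and 2440 in LPS and 2147, 1772 and 1775 in oxLDL+LPS PMφs. It was lower in each number, by 0.72, 0.63 and 0.46 on the log2 scale, a mean of -0.60 or 1.52-fold (SE 0.16 and limma adjusted p = 0.699 without the block, SE 0.08 and 0.00619 with it). Junb had 9361, 10434 and 11275 against 5728, 8315 and 7453. It too was lower in each number (-0.71, -0.33 and -0.60) and by a mean of -0.54, or 1.46-fold, with a limma adjusted p of 0.0134 with the block. Jund had differences of -0.49, -0.11 and -0.34 and Batf of -0.97, 0.08 and -0.60, so number 2 hardly moved for either. Their means were -0.32 (blocked limma adjusted p = 0.065) and -0.50 (0.0953).

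Egr1 and Fos showed the largest mean differences with oxLDL. Egr1 had 159, 133 and 72 in LPS and 58, 94 and 44 in oxLDL+LPS PMφs. It was lower in each number (-1.44, -0.50 and -0.70), a mean of -0.88 or 1.84-fold, with a limma adjusted p of 0.708 without the block and 0.0334 with it. Fos had 245, 94 and 105 against 454, 107 and 268. The oxLDL+LPS library was higher in each number, by 0.89, 0.19 and 1.34, and the groups overlapped. The mean was 0.81, or 1.75-fold, with a limma adjusted p of 0.793 without the block and 0.0389 with it. Jun was higher by 0.13, 0.22 and 0.25 and did not pass (blocked limma adjusted p = 0.124), and Atf3 and Egr2 had mean log2 fold changes of -0.03 and 0.09.

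**Figure D4:**
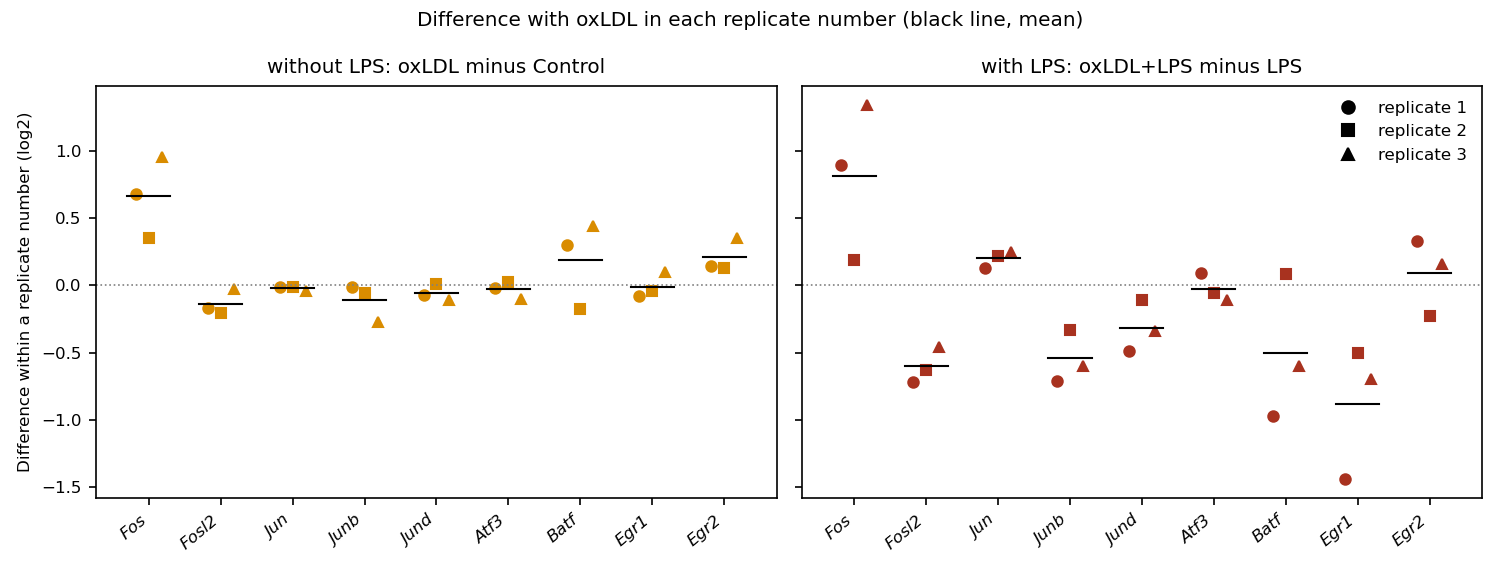
Difference with oxLDL on the log2 scale (y axis) within each replicate number for 9 genes, without LPS (left) and with LPS (right), with a symbol per number and a black line at the mean. Fos lies above 0 in all 6 pairs, and with LPS Fosl2, Junb, Jund and Egr1 lie below 0 in all 3 pairs.

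Seen as increments, the rise of Fosl2 with LPS in oxLDL-loaded PMφs was 45.8%, 48.4% and 57.6% of the rise without oxLDL in numbers 1, 2 and 3. That of Junb was 52.3%, 76.2% and 62.6%, that of Jund 31.0%, 86.6% and 69.8%, that of Batf 43.7%, 108% and 60.6% and that of Atf3 154%, 80.5% and 90.1%. The fall of Jun was 90.4%, 91.4% and 86.3% of that without oxLDL, and the fall of Fos was 130%, 134% and 174%. Number 1 enters these shares with pools of different sex make-up in the LPS states. Whether the LPS response itself differed with oxLDL was tested by the interaction over all 12 libraries, in which 0% of 13465 genes passed with or without the block. Its log2 values were -0.87 for Egr1 (SE 0.45), -0.69 for Batf (SE 0.33), -0.47 for Fosl2 (SE 0.21) and -0.43 for Junb (SE 0.18). Fosl2 and Junb had an unadjusted limma p of 0.0491 and 0.0304, and with the block 4 members were under 0.05, but the lowest adjusted p of any member was 0.655. An interaction was thus not established for any member.

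In oxLDL+LPS PMφs Junb and Fosl2 again led their families. Jun held 15.1%, 8.44% and 8.62% of the Jun family per kb, Junb 50.4% ± 2.58 and Jund 38.9% ± 2.05. Fos held 30.0% ± 11.7 of the Fos family and Fosl2 55.9% ± 11.6 (SD, n = 3). The ratio of Junb to Jun was 3.18, 6.29 and 5.84, against 5.67, 9.2 and 10.5 with LPS alone, where the ranges meet.

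A list of 25 other genes that can join or border on the AP-1 network was read in LPS against Control PMφs. Of them 16 were higher and 5 lower, against 31.4% and 30.3% of all genes, and the median log2 fold change was 0.48 against -0.0 for all genes. With library totals the counts were 10 and 8, where 2207 of all 13006 genes were higher and 7189 lower. With quantile normalization they were 10 and 5, where 3239 of all genes were higher and 4809 lower. Batf2, a BATF paralog, went from 38.3 ± 14.0 to 2151 ± 372 normalized counts (SD, n = 3), Maff from 86.3 ± 20.8 to 951 ± 398 and Cebpb, a C/EBP partner in inflammatory gene control, from 3387 ± 683 to 13581 ± 1806. Creb5 and Mafk were also higher, with log2 fold changes of 2.69 and 1.77. Bach2, a repressor that pairs with small MAF proteins, went from 110.0 ± 26.7 to 13.3 ± 6.35. Atf6, Bach1 and Atf1 were lower, with log2 fold changes of -0.99, -0.94 and -0.80. In oxLDL+LPS against oxLDL 13 of the 25 were higher and 5 lower, where 28.1% of all genes were higher and 26.3% lower. Of the interferon regulatory factors that bind with BATF, Irf8 was lower in that comparison (log2 fold change -0.59, limma adjusted p = 0.00986) and did not pass in LPS against Control (0.15), and Irf4 passed in neither.

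Upstream of these genes, 10 of 22 tested MAP kinases and their effectors were higher and 4 lower in LPS against Control PMφs. The share called was thus close to the 61.7% of all genes. By library totals the counts were 8 and 10, where 2207 of all 13006 genes were higher and 7189 lower. By quantile normalization they were 9 and 8, where 3239 of all genes were higher and 4809 lower. Mapkapk2, the kinase downstream of p38, went from 3764 ± 97.1 to 27371 ± 3266, and Map2k1, which encodes MEK1, from 1815 ± 123 to 7793 ± 389. Mapk11, Map3k5 and Rps6ka4 were higher by 2.65, 1.59 and 1.45 on the log2 scale, and Rps6ka1 was lower with -0.86. Of 6 genes for serum response factor and its cofactors, which bind the CArG box and its neighbourhood, 0 were higher and 4 lower. Of all genes 31.4% were higher and 30.3% lower. Mkl2 and Mkl1 had log2 fold changes of -1.79 and -1.74, Elk1 of -0.44 and Elk3 of -0.26. Srf itself (-0.0, limma adjusted p = 0.978) and Elk4 (0.08, 0.702) did not pass. With library totals all 6 were lower, as were 7189 of all 13006 genes. Of the EGR co-repressors Nab1 was higher by 0.93 and Nab2 by 0.27 on the log2 scale, and 1 of the list was called lower with library totals. Of the 5 other EGR genes and co-repressors listed, 3 passed the filter.

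Of 29 other immediate early genes tested, 19 were higher and 3 lower with LPS, where 31.4% of all genes were higher and 30.3% lower. By library totals the counts were 12 and 6, where 2207 of all 13006 genes were higher and 7189 lower. By quantile normalization they were 16 and 6, where 3239 of all genes were higher and 4809 lower. Ier3 went from 163 ± 19.1 to 2058 ± 368, Dusp2, a MAP kinase phosphatase, from 151 ± 1.53 to 899 ± 453 and Csrnp1 from 431 ± 45.0 to 2172 ± 319. Nr4a3, a nuclear receptor, went from 4.0 ± 2.0 to 324 ± 192 and Gadd45b was higher by 1.96. Per1, Sik1 and Klf10 were lower, with log2 fold changes of -1.04, -1.02 and -0.90. In oxLDL+LPS against LPS PMφs 0 of 30 passed without the block, and with it 2 were higher and 10 lower, where 4.41% of all genes were higher and 8.75% lower. Blocked calls over all genes dropped to 70 and 0 without number 1 and 3, and with library totals their split was 1012 higher and 567 lower. Nr4a3 then had a log2 fold change of -1.68 (blocked limma adjusted p = 0.00602), Dusp2 of -1.12 (0.0249), Csrnp1 of -0.90 (0.0103) and Ier3 of -0.72 (0.00372).

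Of 30 genes known from other work as AP-1 or EGR targets, 24 were higher and 3 lower with LPS, against 31.4% and 30.3% of all genes. The list was chosen with earlier results of these data known and holds LPS response genes, Tnf and Il1b among them. The difference from all genes is therefore only a description. Their median log2 fold change was 2.5. With library totals 20 were higher and 4 lower, where 2207 of all 13006 genes were higher and 7189 lower. With quantile normalization the counts were 20 and 5, where 3239 of all genes were higher and 4809 lower. Tnf went from 64.0 ± 3.61 to 62448 ± 24412, Cxcl2 from 16.3 ± 4.51 to 31857 ± 15132, Ptgs2, the inducible cyclooxygenase, from 59.7 ± 9.5 to 42108 ± 24197 and Il1b from 12.7 ± 6.66 to 96551 ± 51804. Ccr2, Vegfa and Id3 were lower, with log2 fold changes of -2.39, -1.15 and -0.54. In oxLDL+LPS against LPS PMφs 1 of 29 was higher and 17 were lower with the block, against 4.41% and 8.75% of all genes, and 0 passed without it. Over all genes these blocked calls are the ones that dropped to 70 and 0 without number 1 and 3. Il1b had a log2 fold change of -2.16 (blocked limma adjusted p = 0.00792), Ptgs2 of -1.89 (0.00349), Cxcl2 of -0.74 (0.00963) and Tnf of -0.67 (0.0214). These targets have other regulators too, and their link to the members was not tested. Heat shock genes, which handling of cells can raise together with Fos and Atf3, were higher for 6 and lower for 2 of 10 in LPS against Control PMφs, where 61.7% of all genes were called, with Hspa1b at 37.3 ± 18.9 in Control and 559 ± 330 in LPS.

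Genes whose log2 levels followed a member most closely over the 12 libraries are given as a description, since the points share libraries and LPS state. Junb was followed by Ccl4 (Pearson r 0.999), Lrrc8c (0.998) and Usp12 (0.998), Jun by Coro1c (0.996), Lrrfip1 (0.994) and Smarca2 (0.993) and Batf by Nbas (0.997), Tlk2 (0.996) and Ube2e1 (0.996). Fosl2 was followed most closely by Acsl4 (0.986), Jund by Abhd17b (0.989), Atf3 by Timm10 (0.988), Fos by Sfxn5 (0.98), Egr2 by Hirip3 (0.957) and Egr1 by Snora31 (0.94), each over 12 libraries and among 13465 genes. Once the group means were subtracted, Ccl4 was still among the 3 closest genes for Junb (0.957) and Nbas among those for Batf (0.922), while for each other member the 3 genes were different ones.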

How the data were processed

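The deposited values are whole numbers that behave as gene counts multiplied by 1 factor per library and rounded. The authors' processing gave them this form, so they were treated as a normalized score and the reads were not recovered. Per the methods and the submitters' processing notes, poly(A) libraries were made with a directional kit, trimmed with Trimmomatic 0.32, aligned to mm10 (GRCm38) with STAR 2.5.1b and counted over GENCODE exons with featureCounts, and the authors compared groups with DESeq2. Whether counting used strand is not stated. A spreadsheet had turned 25 symbols into dates, at most 0.165% of a library, which were left out of the tests, and 18273 symbols were at 0 everywhere.

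Each factor was read from the spacing of the values. On 24 simulated columns with random factors the error was at most 0.109%, but with 7 factors of 1 or 2 decimals 1 was off by 4.35%, and no factor read from the data was so round. Because the values are scaled, limma 3.58.1 in R 4.3.3 (lmFit, eBayes with a trend) was used on log2 of the value plus a pseudocount of 1, which understates fold changes of low genes. The filter kept genes of at least 10 in at least 3 libraries of a comparison. Only the 6 libraries compared entered a fit, and the interaction used all 12. On data simulated for LPS against Control (12590 genes, 192 of them changed) it made 153 calls with 0 false ones and found 90.4% of changes of log2 1 and 69.4% of log2 0.5. The replicate block made 182 calls, of which 14 were false. The simulation gave each replicate number a pool effect shared across LPS, whereas number 1 of the data differs in sex make-up there. It also held far fewer changed genes than the 61.7% called in the data. These rates therefore may not carry over.

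The block is the replicate number of the labels. After subtraction of group means, libraries of the same number correlated across 11170 genes (which are no independent replicates) by 0.709, 0.691 and 0.731 (oxLDL and Control), 0.733, 0.663 and 0.691 (oxLDL+LPS and LPS), 0.423, 0.41 and 0.617 (LPS and Control) and 0.33, 0.524 and 0.665 (oxLDL+LPS and oxLDL), so the numbers were taken to pair the libraries, with the exception of sex make-up given above.

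The members and the gene lists were chosen with earlier results of these data known. Their counts beside the shares of all genes are therefore descriptions. All 10 members are named. From each list the called genes with the largest log2 fold changes in LPS against Control are named, at most 5 in each direction, and for likeness the genes with the highest correlation. Il6 and Map2k6 fall under this rule but lie near the floor of 3 reads in a group, so no fold is given for them. Some genes under the rule are not reported here. Tables were handled with pandas 2.3.3 in Python 3.11.15. Promoters come from RefSeq and gene positions from GENCODE M21. Alternatives were the block, other filters, pseudocounts and scalings, no variance trend, 1 fit of all libraries and leaving out libraries. Those that join the block with another choice were added after the data were seen.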

Additional observations from a re-analysis of the deposited data

Results flagged for a closer look

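The difference of Jun with oxLDL was near 0 without LPS and above 0 with LPS. Within replicate numbers 1, 2 and 3 it was -0.01, -0.01 and -0.04 on the log2 scale without LPS and 0.13, 0.22 and 0.25 with LPS. Leaving out single libraries moved the mean without LPS from -0.081 to 0.047, so its sign is not settled. The interaction was 0.22 (SE 0.24) and did not pass, with a limma adjusted p of 1.0 without the replicate block and 0.793 with it.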

How the results depend on the processing

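The count of members called stayed within 1.5 times its reported value in 92 of 100 alternatives. The exceptions were the fits with the replicate block. Of the 92, 24 in the interaction, 14 in oxLDL against Control and 16 in oxLDL+LPS against LPS compared 0 with 0 and say little. The count also ignores direction, so it did not register Atf3 turning lower under quantile normalization in LPS against Control. In oxLDL against Control PMφs the block called 2 members, 1 without number 1, 1 without number 2, 3 without number 3 and 2 with library totals, where 0 were called without it. Over all genes the block called 599, 235, 129, 1283 and 703 in the same order. In oxLDL+LPS against LPS PMφs it called 6 members, with 7 without number 2 and 5 with library totals, where 1680, 2945 and 1579 of all genes were called. The block on its own changed no call in the LPS comparisons or the interaction. In LPS against Control it gave 4 higher and 2 lower without number 3, where Egr2 and Atf3 lost their calls (limma adjusted p = 0.177 and 0.109), and 4 and 4 with library totals, where Egr1 gained one (0.039). Over all genes these fits called 3300 higher and 3266 lower of 12297, and 2372 and 7762 of 13006. With library totals the blocked calls of all genes in oxLDL+LPS against LPS went from 563 higher and 1117 lower to 1012 and 567. Leaving out each library in turn gave 6 to 8 members in LPS against Control, where 6866 to 7678 of 12549 to 12740 genes were called. In oxLDL+LPS against oxLDL it gave 7 to 9 members, where 5826 to 6687 of 12543 to 12614 genes were called. Leaving out a library left 2 in its group.

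Of the single genes, 807 values kept direction and call, 19 lost the call, 28 gained it and 46 changed sign. Sign changes under library totals, quantile normalization and the block with totals were those of Atf3, at -0.13, -0.49 and -0.13 in LPS against Control, -0.032, -0.37 and -0.032 in oxLDL+LPS against oxLDL and 0.062, 0.11 and 0.062 in oxLDL+LPS against LPS, and of Egr1 in LPS against Control with quantile normalization (0.10). With the block, leaving out a number gave 0.12 for Egr1 in LPS against Control (without 3), 0.032 and 0.0089 for Egr1 in oxLDL against Control (without 1 and 2), 4e-04 for Atf3 in oxLDL against Control and 0.014 in oxLDL+LPS against LPS (without 3), -0.036 for Egr2 in oxLDL+LPS against LPS (without 1), and in the interaction -0.047 for Atf3 (without 1) and 6e-04 for Egr2 (without 2). Leaving out single libraries gave -0.30 to 0.27 for Egr1 in LPS against Control. In oxLDL against Control the ranges were -0.081 to 0.047 for Jun, -0.18 to 0.079 for Jund, -0.15 to 0.13 for Egr1 and -0.11 to 0.035 for Atf3. In oxLDL+LPS against LPS they were -0.11 to 0.35 for Egr2 and -0.088 to 0.065 for Atf3, and in the interaction -0.33 to 0.71 for Fos, -0.31 to 0.14 for Egr2 and -0.063 to 0.098 for Atf3. Values that changed sign were not called as reported, apart from Atf3 in the LPS comparisons. With no filter Egr2 in LPS against Control and Fos in oxLDL+LPS against oxLDL lost their calls (limma adjusted p = 0.104 and 0.101), as they did with no variance trend (0.111 and 0.113). The cause of these changes was not tested.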
